A study of Mus musculus with 18 samples.

Results

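The genes described here are 9 genes of the liver X receptor (LXR) pathway, taken by symbol from the deposited count table, which lists 16314 gene symbols. They comprise the receptors Nr1h2 (LXR beta) and Nr1h3 (LXR alpha) with their dimer partner Rxra, the cholesterol transporters Abca1 and Abcg1, the lipoprotein genes Apoe and Pltp, and the LXR targets Mylip and Lpcat3. All 9 were found and all 9 passed the filter on low counts, among 12021 genes tested. The cells were bone marrow-derived macrophages (BMDMs) from Prep-/- mice and from heterozygous Prep+/- littermates on the C57BL6/J background, so that the controls carried 1 deleted allele as well. Prep encodes prolyl endopeptidase, a serine protease that cuts short peptides after proline. BMDMs of both genotypes were grown for 7 days with 50 ng/ml M-CSF and were then left unstimulated (M0), stimulated for 24 h with 50 ng/ml LPS (M1), or given IL-4 plus IL-13, each at 20 ng/ml, for 24 h (M2). Bulk RNA-seq gave 3 libraries for each of the 6 groups, 18 in all. The study calls them biological replicates without saying whether each came from a separate mouse, so p-values measure the spread between these cultures.

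LXRs are nuclear receptors that bind oxysterols and other sterols and act on DNA as a dimer with a retinoid X receptor (RXR). When a macrophage takes up lipoproteins or dead cells, activated LXR raises the genes that carry the surplus cholesterol out of the cell. ABCA1 loads cholesterol and phospholipid onto lipid-poor apolipoproteins such as apolipoprotein E, and ABCG1 hands cholesterol to larger lipoprotein particles. LXR also limits further uptake through Mylip (also called IDOL), which marks the LDL receptor for degradation, and remodels membrane phospholipids through Lpcat3.

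Depth ranged from 19068237 to 22598279 counts per library, and values below are normalised counts, that is counts scaled to a common effective library size by TMM, unless another scale is named. The targeted gene matched the labels: Prep lay between 551 and 900.0 normalised counts in the 9 Prep+/- libraries and between 31.3 and 68.1 in the 9 Prep-/- libraries. All 8 listed macrophage markers were in the table and summed to 10362 CPM or more in every library. CPM are counts as a rate of the effective library size from TMM, not of the library total. Prep-/- M0 replicate 3 and Prep-/- M2 replicate 3 stood apart from the other libraries of their groups, with chi-square values per degree of freedom of 111 to 119.7 against them, where other replicate pairs gave 9.87 to 49.1. Calls that changed and fold changes that moved by over 1.5 times without either library are given below. A gene was called higher or lower when its adjusted p was below 0.05 in edgeR's quasi-likelihood test with Benjamini-Hochberg adjustment over all 12021 genes and its fold change exceeded 1.5. In bulk RNA, more cells of a type and more RNA per cell cannot be told apart.

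In M0 BMDMs, 6 of the 9 genes were higher in Prep-/- than in Prep+/- cells (Abca1, Abcg1, Apoe, Pltp, Rxra and Mylip) and 0 were lower, while 15.4% of all genes tested were called higher and 17.2% lower. In M1 BMDMs, 4 of the 9 were higher (Abcg1, Pltp, Mylip and Lpcat3) and 0 lower, against 12.3% of all genes higher and 10.2% lower. In M2 BMDMs, 6 of the 9 were higher (Abca1, Abcg1, Apoe, Pltp, Mylip and Lpcat3) and 0 lower, against 6.37% of all genes higher and 9.82% lower. The 9 genes had median log2 fold changes of 1.08 (M0), 0.46 (M1) and 0.96 (M2), beside medians of 0.02, 0.04 and 0.03 over all genes tested. Libraries of the genotypes did not overlap for 7 genes in M0, all higher in Prep-/- (Nr1h2 by less than 1 count), for 5 higher and 1 lower in M1, and for 7 in M2, all higher. Over all genes tested, 25.6% were higher and 27.1% lower without overlap (M0), and the shares were 29.8% and 27.1% for M1 and 21.2% and 20.9% for M2. Abcg1, Pltp and Mylip were called higher in all 3 states. By the interaction test, which compares the genotype differences of a pair of states, 3 of the 9 genes differed between M1 and M0 (24.6% of all genes), 1 between M2 and M0 (9.64%) and 2 between M2 and M1 (13.8%). Without Prep-/- M0 replicate 3 the M0 count was again 6, and without Prep-/- M2 replicate 3 the M2 count was 5. When the 1.5-fold change was made part of the test itself (edgeR's glmTreat), 5, 2 and 3 genes were higher: Rxra was lost in M0, Mylip and Lpcat3 in M1, and Abcg1, Mylip and Lpcat3 in M2.

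Marker levels of macrophages and of other cell types also moved with the genotype. The macrophage markers summed to 30457 to 48240 CPM in Prep-/- M0 against 19124 to 22524 CPM in Prep+/- M0 and to 14164 to 19904 against 10362 to 12533 CPM in M2, without overlap. After LPS the order was the opposite, with 31141 to 37158 CPM in Prep-/- and 45903 to 47339 CPM in Prep+/- BMDMs. Most of the sum was Lyz2 (lysozyme), with means of 32264 and 17133 CPM in Prep-/- and Prep+/- M0. Among markers of other cells, Prep-/- M0 lay above Prep+/- M0 for granulocyte precursors (36.2 to 84.2 against 17.2 to 22.4 CPM), T cells (7.84 to 29.6 against 0.750 to 0.962 CPM), B cells (8.66 to 11.5 against 3.01 to 4.79 CPM) and dendritic cells (0.969 to 1.42 against 0.200 to 0.501 CPM). Most of the granulocyte precursor sum was Ngp and Ltf. Their means were 28.2 and 18.3 CPM in Prep-/- M0 and 10.8 and 6.28 CPM in Prep+/- M0. In that list only Mpo had a lower mean in Prep-/- M0 (0.523 against 0.563 CPM). Nearly all of the T cell sum was Cd4 and of the B cell sum Cd79b, while Cd3d, Cd79a and Ms4a1 were at 0 in the Prep-/- M0 libraries. The stromal sum overlapped in M0 (0.369 to 15.6 CPM in Prep-/- against 12.4 to 15.8 CPM in Prep+/-). In M1 the stromal sum was lower in Prep-/-, at 5.65 to 17.3 against 18.4 to 20.5 CPM. The stromal genes did not all move together there, since Dcn alone had a higher mean in Prep-/- M1 (4.41 against 3.24 CPM). In M2 the adipocyte sum was 5.61 to 13.7 CPM in Prep-/- against 0.134 to 0.895 CPM in Prep+/- BMDMs, mostly from Adipoq, with Plin1 at 0. The part of these shifts in the genotype differences of the 9 genes was not tested.

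**Figure D1:**
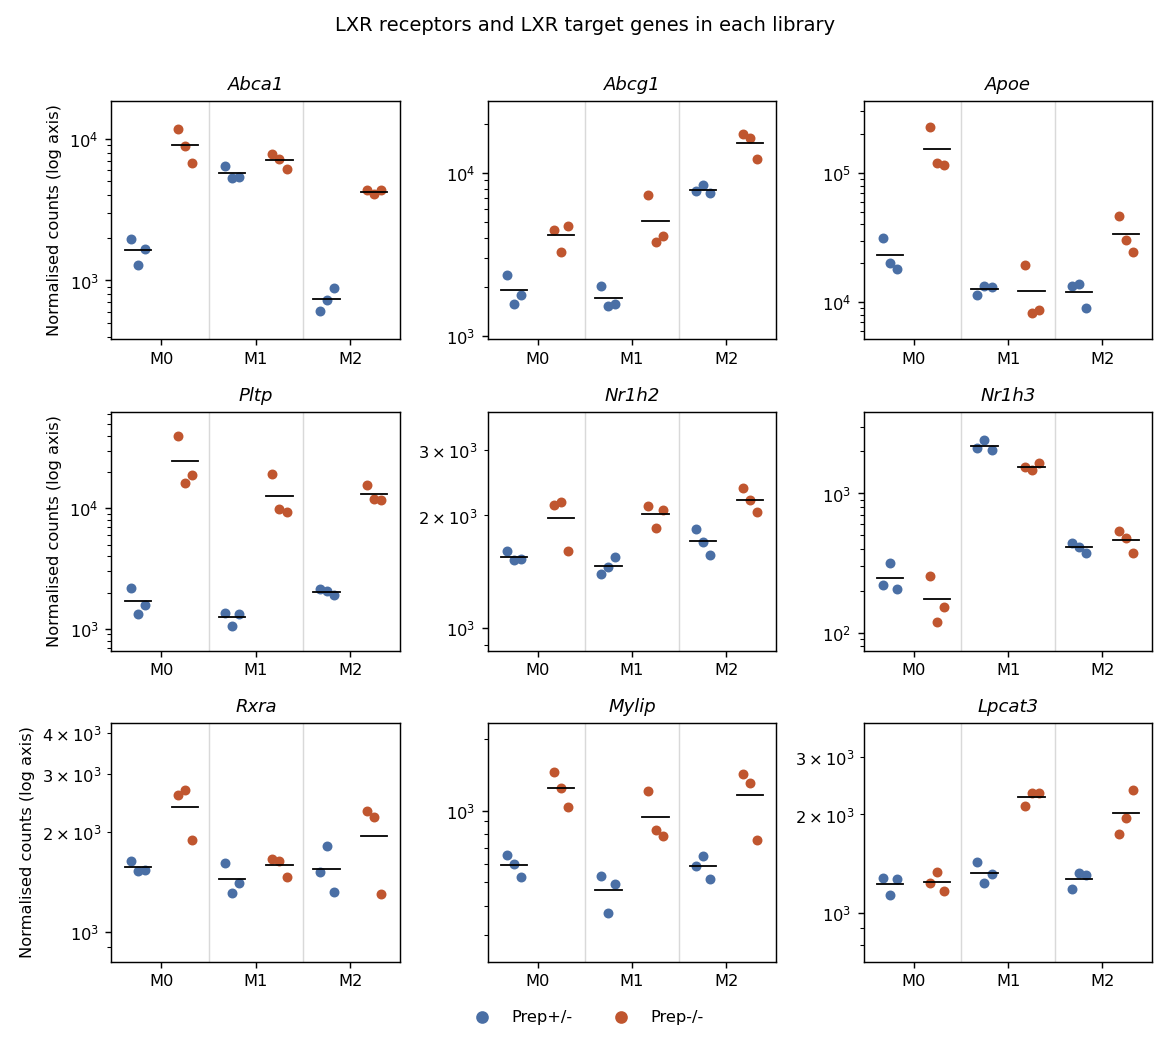
Normalised counts of the 9 genes in each library on log axes, by state (M0, M1, M2) and genotype (Prep+/- blue, Prep-/- orange); points are libraries and black lines are group means (n = 3). The Prep-/- points of Pltp lie above all Prep+/- points in every state, those of Abca1 do so within M0 and M2 but overlap Prep+/- within M1, and Nr1h3 is highest in M1 of both genotypes.

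Abca1, the transporter that starts cholesterol efflux, had 1967, 1296 and 1664 normalised counts in the Prep+/- M0 libraries and 11652, 8939 and 6729.7 in the Prep-/- M0 libraries. The groups did not overlap, and the log2 fold change was 2.47 (SE 0.20, adjusted p = 3.7e-07), a 5.55-fold difference. In M2 the Prep+/- libraries had 613, 731 and 890.0 and the Prep-/- libraries 4318, 4048 and 4327, a log2 fold change of 2.51 (SE 0.20, adjusted p = 1.2e-06). Under LPS no such gap was detected: Prep+/- M1 libraries had 6427, 5270.2 and 5398 and Prep-/- M1 libraries 7871, 7169 and 6151, and the groups overlapped (log2 fold change 0.31, SE 0.19, adjusted p = 0.203). The genotype difference in M1 was smaller than that in M0 by the interaction test, at -2.16 on the log2 scale (SE 0.27, adjusted p = 5.4e-05), and larger in M2 than in M1 at 2.196 (SE 0.27, adjusted p = 1.4e-04). Between M0 and M2 it differed by 0.03 (SE 0.27, adjusted p = 0.957).

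Abca1 lies on chromosome 4 at 53030787 to 53159900, minus strand (GRCm39). Its promoter window is shown because LXR/RXR dimers bind a DR4 element, AGGTCA repeated in the same direction with 4 bases between, and the window of Pltp is shown beside it because Pltp differed most between the genotypes. Both windows are RefSeq sequences of build GRCm38.p6, from 250 bases before the gene start to 50 after it, at chr4:53159846-53160145 (Abca1) and chr2:164857659-164857958 (Pltp), each read along the minus strand that carries the gene. Capitals mark the stretch closest to a DR4 element on either strand.
Abca1: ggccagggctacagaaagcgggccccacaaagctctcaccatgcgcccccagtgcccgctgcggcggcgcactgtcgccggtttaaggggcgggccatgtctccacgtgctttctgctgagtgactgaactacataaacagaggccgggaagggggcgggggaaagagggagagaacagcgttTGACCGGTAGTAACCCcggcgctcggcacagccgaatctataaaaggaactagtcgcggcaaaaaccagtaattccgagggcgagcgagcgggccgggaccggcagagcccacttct
Pltp: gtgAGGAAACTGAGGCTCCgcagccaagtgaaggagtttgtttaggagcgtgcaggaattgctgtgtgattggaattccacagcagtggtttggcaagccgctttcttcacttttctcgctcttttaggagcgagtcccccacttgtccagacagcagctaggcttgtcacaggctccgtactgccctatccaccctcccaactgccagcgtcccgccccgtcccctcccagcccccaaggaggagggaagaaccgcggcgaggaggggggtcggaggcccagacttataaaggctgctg
The Abca1 stretch matched 9 of the 12 fixed letters and ended 52 bases before the gene start; read on the strand of the motif it is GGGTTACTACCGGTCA. The closest stretch in the Pltp window matched 7 of 12. Windows were given for 8 of the 9 genes, and 0 of these 8 held the motif with at most 2 mismatches, beside 3.47% of all 27025 genes with a window. With 3 mismatches allowed, Abca1 and a second window of Rxra matched, beside 24.5% of all genes. These counts describe the letters of 300-base windows and say nothing of binding.

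Abcg1, the transporter that supplies larger lipoprotein particles (chromosome 17, 31276649 to 31336969, plus strand), was higher in Prep-/- BMDMs in all 3 states. In M0 the Prep+/- libraries had 2354, 1564 and 1794 normalised counts and the Prep-/- libraries 4449.7, 3283 and 4718 (log2 fold change 1.12, SE 0.23, adjusted p = 8.0e-04). In M1 they had 2015, 1523 and 1559 against 7272, 3792 and 4129 (log2 fold change 1.58, SE 0.23, adjusted p = 2.1e-04). In M2 both genotypes were at their highest, with 7714, 8444 and 7492 in Prep+/- and 17355, 16454 and 12116 in Prep-/- libraries (log2 fold change 0.96, SE 0.23, adjusted p = 0.0058). The genotypes did not overlap in any state. Its genotype difference did not pass the test of a change between states (adjusted p = 0.322 for M1 against M0, 0.787 for M2 against M0 and 0.216 for M2 against M1).

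Apoe, the apolipoprotein that macrophages secrete and that accepts cholesterol from ABCA1 (chromosome 7, 19430034 to 19434947, minus strand), was the most abundant of the 9 genes per transcript length in 5 of the 6 groups, at 500.0 CPM per kb in Prep+/- M0. In Prep-/- M1 Pltp was above it, at 329.8 against 263 CPM per kb, with lengths of canonical transcripts. With the combined length of all exons of a gene, Apoe lay above Pltp there, at 141.9 against 101.7 CPM per kb. Its Prep+/- M0 libraries had 31297, 19982 and 17963 normalised counts and its Prep-/- M0 libraries 227654, 119705 and 114484, a log2 fold change of 2.74 (SE 0.37, adjusted p = 2.3e-05). Replicate 1 of Prep-/- M0 was the highest by far, and without it the log2 fold change was 2.34. In M2 the Prep+/- libraries had 13271, 13835 and 9030.2 and the Prep-/- libraries 46855, 30421 and 24296 (log2 fold change 1.49, SE 0.35, adjusted p = 0.0055). In M1 they had 11357, 13411 and 13196 against 19504, 8226 and 8749.6, so that the genotypes overlapped and 1 Prep-/- library lay above and 2 below all Prep+/- libraries (log2 fold change -0.06, SE 0.35, adjusted p = 0.910). Leaving out each library in turn moved this value between -0.59 and 0.15. The genotype difference in M1 was smaller than that in M0 by -2.80 on the log2 scale (SE 0.50, adjusted p = 9.6e-04). It was larger in M2 than in M1 by 1.55 (SE 0.49, adjusted p = 0.0457), and that call was lost, with values of 1.25 to 1.65, without any 1 of the Prep+/- M1 and M2 libraries, Prep-/- M1 replicate 2 or 3, or Prep-/- M2 replicate 1. Between M2 and M0 it differed by -1.25 (SE 0.49, adjusted p = 0.120).

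Hepatocytes make much apolipoprotein E as well, so their markers were followed beside Apoe. The summed level of the 10 hepatocyte genes in the table was 343.8 to 779.6 CPM in Prep-/- M0 and 49.9 to 75.5 CPM in Prep+/- M0, and 160.7 to 217.7 against 48.5 to 59.1 CPM in M2. Most of it came from Trf (transferrin), at 327 to 779 CPM in the Prep-/- M0 libraries. The other 9 genes together reached 17.2 CPM in Prep-/- M0 replicate 3, which included 11.8 CPM of Alb (albumin), and 0.151 to 0.868 CPM in every other library. Apoe was lowest within Prep-/- M0 in that same replicate 3, at 5409 CPM, beside 10756 and 5656 CPM in replicates 1 and 2, where Alb was at 0. Trf had the same order as Apoe within Prep-/- M0, at 779, 427 and 327 CPM in replicates 1, 2 and 3. Without replicate 3 the log2 fold change of Apoe in M0 was 2.89. The part of hepatocyte RNA in the Apoe values was not tested.

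Pltp, the phospholipid transfer protein that passes phospholipids between lipoproteins (chromosome 2, 164677702 to 164701743, minus strand), showed the largest genotype difference of the 9 genes in every state. In M2 that rank over Abca1 rested on Prep+/- M2 replicate 3, without which Abca1 was at 2.66 and Pltp at 2.64 on the log2 scale. In M0 the Prep+/- libraries had 2188, 1327 and 1574 normalised counts and the Prep-/- libraries 39449, 16104 and 18669, a 14.6-fold difference (log2 fold change 3.87, SE 0.35, adjusted p = 7.5e-07). Without Prep-/- M0 replicate 1, the highest of its group, the log2 fold change was 3.36. In M1 the Prep+/- libraries had 1356, 1056 and 1334 and the Prep-/- libraries 19049, 9808 and 9239 (log2 fold change 3.35, SE 0.34, adjusted p = 1.3e-05). In M2 they had 2151, 2039.8 and 1893 against 15536, 11835 and 11603 (log2 fold change 2.68, SE 0.33, adjusted p = 4.0e-05). The difference in M2 was -1.19 against that in M0 (SE 0.44, adjusted p = 0.0980), and -1.41 (adjusted p = 0.0463) without Prep-/- M0 replicate 2. It also passed with DESeq2 (-1.17, adjusted p = 0.0498) and with a replicate block in all libraries (-1.15, adjusted p = 0.0182). Over all fits that left out 1 library it ran from -1.41 to -0.68, with adjusted p up to 0.256. The lowest Prep-/- library of any state was above the highest Prep+/- library of any state. Pltp shares 5260 bases with Ctsa on the opposite strand, and the strand setting of the counting is not given in the sources used here. The log2 fold changes of Ctsa were 0.11, 0.17 and 0.40 in the same comparisons.

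**Figure D2:**
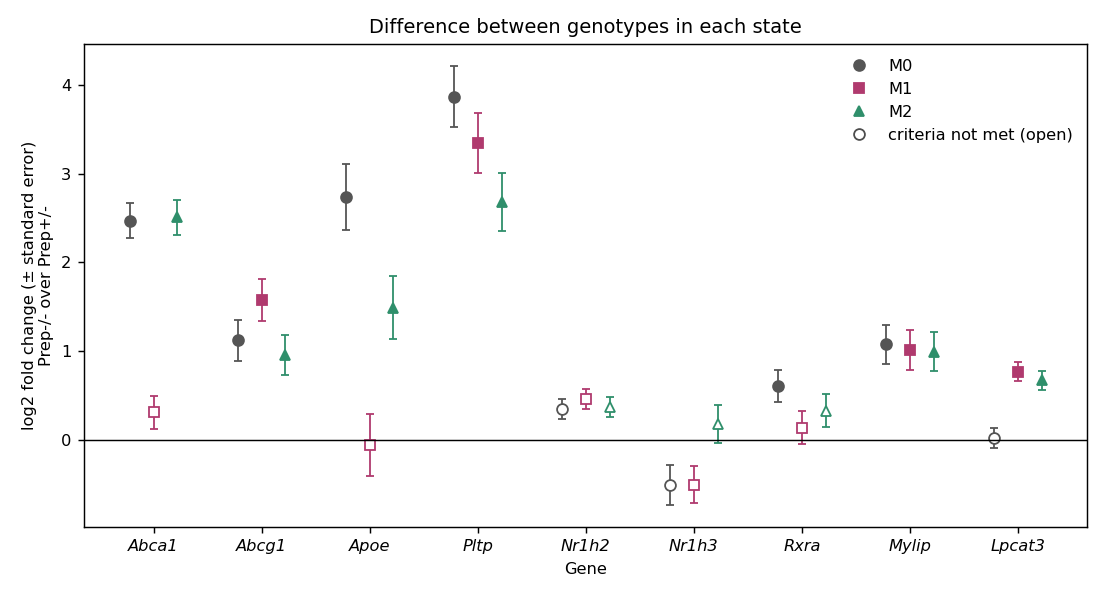
Log2 fold change of Prep-/- over Prep+/- for each gene in M0 (circles), M1 (squares) and M2 (triangles), with standard errors (n = 3 libraries per group); filled symbols met both criteria of a call and open symbols did not. Pltp has the largest values in each state, Abca1 and Apoe stand near 0 in M1 only, and Lpcat3 stands near 0 in M0 only.

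Mylip, the ubiquitin ligase that limits uptake through the LDL receptor (chromosome 13, 45543215 to 45565501, plus strand), differed by a similar size in the 3 states. Prep+/- and Prep-/- libraries had 650.2, 595 and 526 against 1456, 1239 and 1037 normalised counts in M0 (log2 fold change 1.08, SE 0.22, adjusted p = 7.9e-04). In M1 they had 531, 372 and 494 against 1212, 829 and 783 (log2 fold change 1.02, SE 0.22, adjusted p = 0.0028). In M2 they had 587, 644 and 517 against 1421, 1307 and 755 (log2 fold change 0.99, SE 0.22, adjusted p = 0.0035). The genotypes did not overlap in any state. Prep-/- M2 replicate 3 was the lowest of its group, and without it the log2 fold change was 1.24.

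Lpcat3, the acyltransferase that puts polyunsaturated chains into phospholipids (chromosome 6, 124639765 to 124684440, plus strand), differed between genotypes after stimulation but not detectably in M0. The Prep+/- M0 libraries had 1282, 1134 and 1267 normalised counts and the Prep-/- M0 libraries 1232, 1337 and 1166 (log2 fold change 0.02, SE 0.11, adjusted p = 0.898). In M1 they had 1427, 1231 and 1313 against 2116, 2325 and 2331, a log2 fold change of 0.77 (SE 0.11, adjusted p = 1.7e-04). In M2 they had 1186, 1325 and 1308 against 1745, 1951 and 2384, a log2 fold change of 0.67 (SE 0.11, adjusted p = 3.7e-04), which was 0.55 and below the fold criterion without Prep-/- M2 replicate 3. The genotype difference exceeded that in M0 by 0.75 in M1 (SE 0.16, adjusted p = 0.0030) and by 0.65 in M2 (SE 0.16, adjusted p = 0.0171). The M2 value missed the threshold when only the libraries compared were fitted (0.62, adjusted p = 0.0543) and with the replicate block there (0.62, adjusted p = 0.0602). Lpcat3 overlaps Emg1 on the opposite strand over 42630 bases and shares a 620-base exon stretch with it. The log2 fold changes of Emg1 were -0.38 in M0, -0.74 in M1 and -0.23 in M2.

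Of the 3 receptor genes, Rxra alone met both criteria between genotypes, in M0. Nr1h2 (chromosome 7, 44199036 to 44203406, minus strand) passed the adjusted p in each state but stayed below the fold criterion. Its Prep+/- and Prep-/- libraries had 1606, 1517 and 1533 against 2138, 2168 and 1606 normalised counts in M0 (log2 fold change 0.34, SE 0.11, adjusted p = 0.0180). In M1 they had 1391, 1457 and 1548 against 2124, 1848 and 2072 (log2 fold change 0.46, SE 0.11, adjusted p = 0.0055). In M2 they had 1841, 1698 and 1571 against 2371, 2204 and 2040.0 (log2 fold change 0.37, SE 0.11, adjusted p = 0.0229). Prep-/- M0 replicate 3 was as low as the highest Prep+/- M0 library to the nearest count. The adjusted p rose to between 0.0603 and 0.0785 in M0 without Prep+/- replicate 2 or 3 or Prep-/- replicate 1 or 2, with values of 0.27 to 0.32, and to between 0.0796 and 0.102 in M2 without Prep+/- replicate 2 or 3 or Prep-/- replicate 1, with values of 0.31 to 0.34.

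Nr1h3 (chromosome 2, 91014394 to 91033417, minus strand) met the criteria in 0 of the 3 genotype comparisons. Its Prep+/- M0 libraries had 221, 319.9 and 206 normalised counts, and its Prep-/- M0 libraries 256, 119.6 and 152 (log2 fold change -0.51, SE 0.22, adjusted p = 0.0732). Leaving out Prep-/- M0 replicate 1, the highest of its group, gave -0.87 (adjusted p = 0.0026), and leaving out Prep+/- M0 replicate 3 gave -0.64 (adjusted p = 0.0482), both of which met the criteria for a lower call. Other libraries moved the value the other way. It was -0.31 without Prep+/- M0 replicate 2 (adjusted p = 0.322) and -0.29 without Prep-/- M0 replicate 2 (adjusted p = 0.290). In M1 the Prep+/- libraries had 2125, 2411 and 2061 and the Prep-/- libraries 1547, 1462 and 1641, which did not overlap (log2 fold change -0.50, SE 0.21, adjusted p = 0.0674). In M2 they had 444, 414 and 375 against 541, 482 and 376 (log2 fold change 0.18, SE 0.21, adjusted p = 0.577).

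Rxra, the RXR alpha subunit of the dimer (chromosome 2, 27566452 to 27653330, plus strand), stood at 1639, 1528 and 1531 normalised counts in the Prep+/- M0 libraries against 2591, 2676 and 1896 in Prep-/- M0, a log2 fold change of 0.61 (SE 0.18, adjusted p = 0.0122) just above the fold criterion. It fell below that criterion, with values of 0.52 to 0.57, without Prep+/- M0 replicate 2 or 3 or without Prep-/- M0 replicate 1 or 2. In M1 it had 1609, 1309.8 and 1404 against 1655, 1635 and 1465 (log2 fold change 0.14, SE 0.19, adjusted p = 0.584). In M2 it had 1520.0, 1813 and 1317 against 2323, 2225 and 1297, where Prep-/- replicate 3 was the lowest of all 6 libraries (log2 fold change 0.33, SE 0.18, adjusted p = 0.208). Without that library the value was 0.57 (adjusted p = 0.0062), short of the fold criterion.

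Of the 9 genes, Nr1h3 rose most with LPS in both genotypes. It rose by 3.14 on the log2 scale in Prep+/- (SE 0.23, adjusted p = 1.2e-08) and by 3.14 in Prep-/- BMDMs (SE 0.23, adjusted p = 1.4e-08), 8.82-fold and 8.83-fold, and the responses differed by 0.0012 (SE 0.25, adjusted p = 0.9999). The neighbouring Acp2, which overlaps Nr1h3 by 280 bases on the opposite strand, rose by 2.04 and 1.42. Nr1h3 also overlaps the long noncoding RNA gene Gm13783 by 6873 bases on the same strand. Abca1 rose with LPS in Prep+/- BMDMs (log2 fold change 1.80, SE 0.19, adjusted p = 8.4e-07), where the M0 and M1 libraries did not overlap. In Prep-/- BMDMs, which started higher, its value was -0.37 (SE 0.19, adjusted p = 0.105) and the states overlapped. Without Prep-/- M0 replicate 3 it was -0.57 (adjusted p = 0.0116), below the fold criterion. LPS raised 2 of the 9 genes and lowered 1 in Prep+/- BMDMs, beside 16.7% and 20.9% of all genes, and raised 2 and lowered 3 in Prep-/- BMDMs, beside 20.9% and 21.0%.

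With LPS, Apoe fell by 3.66 on the log2 scale in Prep-/- BMDMs (SE 0.38, adjusted p = 6.6e-07) and fell by 0.87 in Prep+/- BMDMs (SE 0.35, adjusted p = 0.0463). The call in Prep+/- was lost without M0 replicate 1 or 2 or without any M1 replicate, with values from -0.61 to -0.95 and adjusted p from 0.0561 to 0.190. Lpcat3 rose in Prep-/- BMDMs by 0.86 (SE 0.11, adjusted p = 6.4e-06) and had a value of 0.11 in Prep+/- (SE 0.11, adjusted p = 0.430). In Prep-/- BMDMs Pltp fell by 0.96 (SE 0.31, adjusted p = 0.0142), a call that was lost without Prep-/- M0 replicate 1 (log2 fold change -0.45) without M1 replicate 2 or 3 (-0.84 and -0.81), and with only the libraries compared (-1.001, adjusted p = 0.0614). Rxra fell by 0.59 in Prep-/- BMDMs (SE 0.18, adjusted p = 0.0118) and was below the fold criterion without Prep-/- M0 replicate 1 or 2 or M1 replicate 3 (-0.53, -0.54 and -0.58), and at -0.58 with the replicate number as a block. Without Prep-/- M1 replicate 1, Mylip was called lower in Prep-/- BMDMs at -0.67, beside -0.40 with all libraries.

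**Figure D3:**
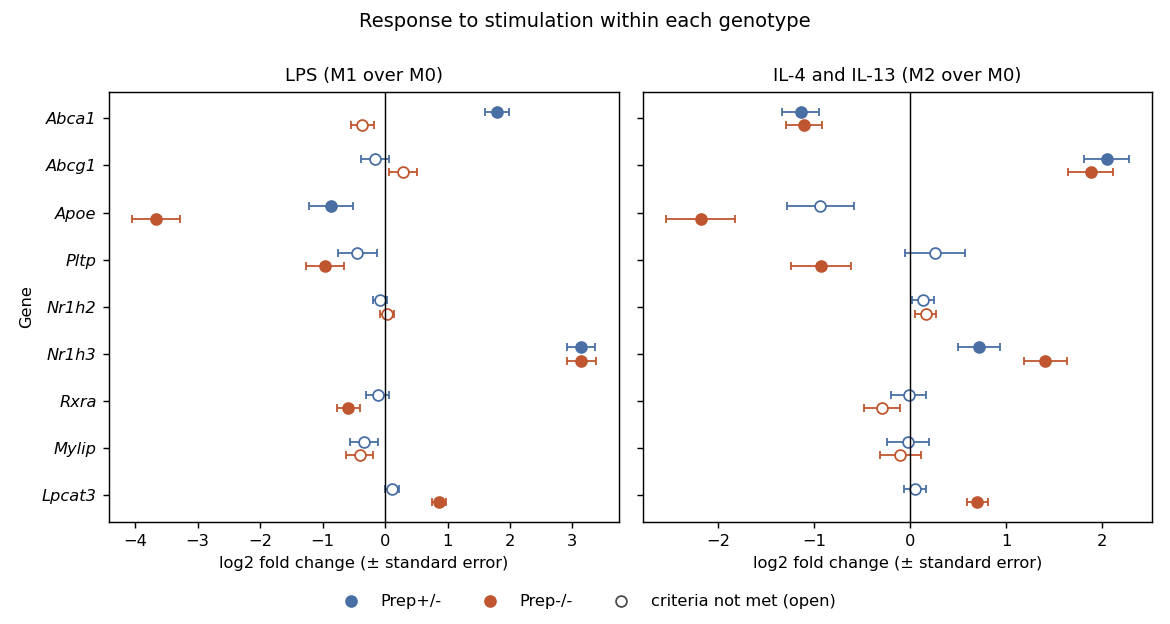
Log2 fold change of each gene with LPS (left, M1 over M0) and with IL-4 and IL-13 (right, M2 over M0) within Prep+/- (blue) and Prep-/- BMDMs (orange), with standard errors; filled points met both criteria of a call and open points did not. Nr1h3 has the same LPS value of 3.14 in both genotypes, whereas Abca1 stands at 1.80 in Prep+/- and -0.37 in Prep-/- BMDMs and Apoe at -0.87 and -3.66.

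IL-4 and IL-13 moved the transporters in opposite directions. Abcg1 rose by 2.05 on the log2 scale in Prep+/- (SE 0.24, adjusted p = 8.9e-06) and by 1.88 in Prep-/- BMDMs (SE 0.23, adjusted p = 8.0e-06). Abca1 fell by 1.14 in Prep+/- (SE 0.19, adjusted p = 4.2e-04) and fell by 1.11 in Prep-/- BMDMs (SE 0.19, adjusted p = 1.8e-04), and its M2 libraries lay below its M0 libraries in each genotype. In all, IL-4 and IL-13 raised 2 of the 9 genes and lowered 1 in Prep+/- BMDMs, beside 6.09% and 6.77% of all genes, and raised 3 and lowered 3 in Prep-/- BMDMs, beside 14.7% and 15.5%.

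Nr1h3 rose with IL-4 and IL-13 by 1.41 in Prep-/- (SE 0.22, adjusted p = 9.6e-05) and by 0.72 in Prep+/- BMDMs (SE 0.22, adjusted p = 0.0287), and the latter call was lost without Prep+/- M0 replicate 1 or 3 or any Prep+/- M2 replicate, with values from 0.60 to 0.76. The responses of the genotypes differed by 0.69 (SE 0.31, adjusted p = 0.173), and by 1.06 (adjusted p = 0.0231) without Prep-/- M0 replicate 1. Over all fits that left out 1 library this ran from 0.47 to 1.06, with adjusted p up to 0.413. Lpcat3 rose in Prep-/- BMDMs by 0.70 (SE 0.11, adjusted p = 9.0e-05), which was 0.56 without Prep-/- M2 replicate 3. Apoe fell by 2.18 in Prep-/- BMDMs (SE 0.36, adjusted p = 1.3e-04), and its value in Prep+/- BMDMs was -0.94 (SE 0.35, adjusted p = 0.0734) with M0 and M2 libraries that did not overlap. Under DESeq2, a replicate block and a fit of only the libraries compared, Apoe was called lower there too (-0.90 to -0.96). Leaving out each library in turn gave -1.09 to -0.67, with adjusted p up to 0.252 and no call. Pltp fell by 0.93 in Prep-/- BMDMs (SE 0.31, adjusted p = 0.0225), which was lost without Prep-/- M0 replicate 1 (-0.42) without Prep-/- M2 replicate 2 or 3 (-0.88 and -0.86), with only the libraries compared (-0.93, adjusted p = 0.0836) and with the replicate block there (-0.83, adjusted p = 0.0502).

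The order of the 6 groups differed from gene to gene. Abca1 was lowest in Prep+/- M2 and rose through Prep+/- M0, Prep-/- M2 and Prep+/- M1 with no overlap between neighbours, while Prep-/- M1 overlapped both Prep+/- M1 below it and Prep-/- M0 above it. Abcg1 was lowest in Prep+/- M1 and Prep+/- M0, which overlapped, followed by Prep-/- M0 and Prep-/- M1, which overlapped, then Prep+/- M2 and Prep-/- M2, which did not. Apoe overlapped between Prep+/- M2, Prep-/- M1 and Prep+/- M1, the lowest groups, and was clear of all other groups in Prep-/- M0. Pltp had the 3 Prep+/- groups lowest, overlapping in order of mean, and Prep-/- M0 highest. Nr1h3 was lowest in Prep-/- M0 and Prep+/- M0, which overlapped, followed by Prep+/- M2 and Prep-/- M2, which overlapped, then Prep-/- M1 and Prep+/- M1, which did not. For Nr1h2 and Rxra every neighbouring pair of groups overlapped. Mylip had its 3 Prep+/- groups below its 3 Prep-/- groups, and Lpcat3 had Prep-/- M2 and Prep-/- M1 above the other 4 groups, without overlap at that step.

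Compared per transcript length, Nr1h2 exceeded Nr1h3 in M0 and M2 in both genotypes. Nr1h2 was at 34.9 CPM per kb and Nr1h3 at 5.55 in Prep+/- M0, and at 44.3 and 3.92 in Prep-/- M0. After LPS, Prep+/- BMDMs had 33.0 (Nr1h2) and 49.0 (Nr1h3) and Prep-/- BMDMs 45.3 and 34.5, so that the order of the receptor transcripts differed between the genotypes on this scale. The lengths are those of the canonical transcripts. With the combined length of all exons of a gene, Prep+/- M1 BMDMs had 20.0 CPM per kb of Nr1h2 and 20.5 of Nr1h3. Rxra lay between 12.4 and 20.6 CPM per kb in all 6 groups.

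**Figure D4:**
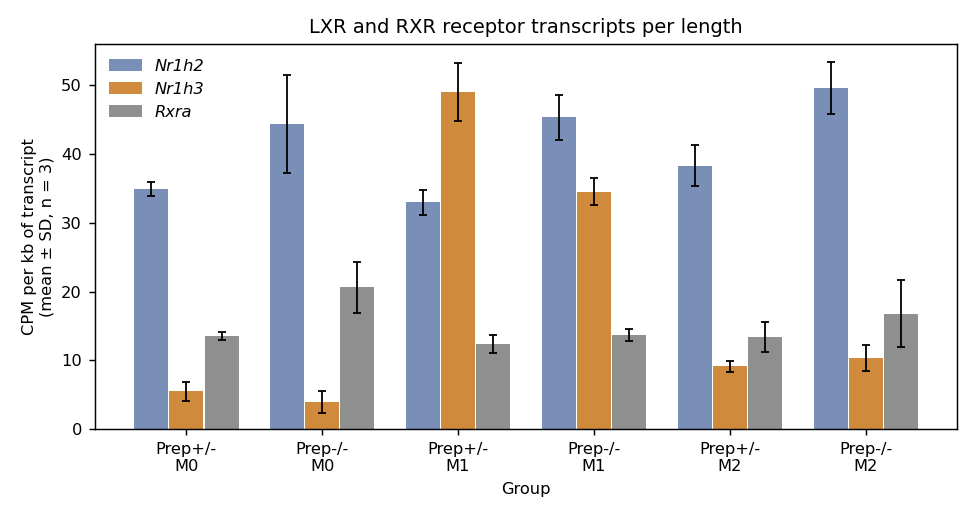
CPM per kb of canonical transcript for Nr1h2, Nr1h3 and Rxra in the 6 groups; bars are means and error bars SD (n = 3 libraries). Nr1h3 is below Nr1h2 in M0 and M2 of both genotypes and above it only in Prep+/- M1, at 49.0 against 33.0.

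Of 56 further genes listed for the pathway, 48 were tested. Between genotypes, 12 of them had higher levels in Prep-/- cells in M0 and 8 had lower levels, while M1 gave 17 with higher and 2 with lower levels and M2 gave 7 and 4, with medians of 0.25, 0.49 and 0.22 on the log2 scale. As shares of the 48, 25.0% were higher and 16.7% lower in M0, beside 15.4% and 17.2% of all genes. The shares were 35.4% and 4.17% for M1, beside 12.3% and 10.2%, and 14.6% and 8.33% for M2, beside 6.37% and 9.82%. Under the alternatives, the number with higher levels was 5 to 18 (M0), 8 to 22 (M1) and 4 to 10 (M2). The number with lower levels was 6 to 10 (M0), 1 to 7 (M1) and 1 to 6 (M2). Among 12 further LXR target genes tested, 6, 7 and 3 had higher levels in the 3 states in turn, and 2, 0 and 0 had lower levels. Among 10 receptor partners, coregulators and related receptors, 3, 3 and 1 were higher and 0 lower. Of 5 genes of oxysterol metabolism 1 was higher in each state, and 2, 1 and 1 were lower. Of 16 genes of cholesterol esterification, hydrolysis and trafficking 2, 4 and 2 were higher and 2, 1 and 1 lower, and of 5 lipoprotein receptors 0, 2 and 0 were higher and 2, 0 and 2 lower.

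Cyp27a1, the mitochondrial enzyme that makes 27-hydroxycholesterol, was higher in Prep-/- BMDMs in every state. The Prep+/- M0 libraries held 478, 271 and 311 normalised counts against 4207, 3019 and 2500.1 in Prep-/- M0 (log2 fold change 3.20, SE 0.31, adjusted p = 1.6e-06), with values of 1.64 in M1 (adjusted p = 0.0030) and 1.94 in M2 (adjusted p = 2.3e-04). Ch25h, which makes 25-hydroxycholesterol, was lower in M1 at -1.83 (SE 0.36, adjusted p = 0.0012) and in M2 at -3.16 (SE 0.38, adjusted p = 3.0e-05). In M2 its libraries had 466, 332 and 764 counts in Prep+/- BMDMs against 69.2, 42.3 and 62.9 in Prep-/- BMDMs.

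The stearoyl-CoA desaturases Scd1 and Scd2, targets of LXR through SREBP-1c, were higher in Prep-/- M1 and M2. Scd2 had 4150.1, 2306 and 2543 normalised counts in Prep+/- M1 and 17678, 22594 and 17904 in Prep-/- M1 (log2 fold change 2.69, SE 0.46, adjusted p = 5.2e-04), and Scd1 a log2 fold change of 4.53 (SE 0.67, adjusted p = 2.1e-04) from 12.8 to 17.8 counts in Prep+/- M1. In M2 the values were 2.23 for Scd2 and 4.69 for Scd1, and 1.21 and 3.49 without Prep-/- M2 replicate 3, which had 20994 counts of Scd2 beside 4902 and 5200.2 in the other Prep-/- libraries. How reads that fit both of these related genes were counted is not given in the sources used here. Cd5l, a macrophage survival protein, was higher in M0 at 1.15 (SE 0.26, adjusted p = 0.0016) and in M1 at 1.38 (SE 0.26, adjusted p = 0.0011). Mertk, a receptor for dead cells, was higher in M0 at 1.01 (SE 0.27, adjusted p = 0.0062), and the RXR gene Rxrb in M0 at 0.87 (SE 0.15, adjusted p = 2.1e-04). Npc2, which moves cholesterol out of lysosomes, was higher in M2 at 0.85 (SE 0.18, adjusted p = 0.0025).

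Receptors for lipoproteins were among the genes that were lower. Lrp8, a receptor for apolipoprotein E, had 305, 428 and 484 normalised counts in Prep+/- M0 against 46.2, 74.4 and 70.3 in Prep-/- M0 (log2 fold change -2.67, SE 0.24, adjusted p = 7.2e-07), and a value of -0.93 in M2 (adjusted p = 0.0057). Lrp1, which clears remnant lipoproteins, was lower in M0 at -1.34 (SE 0.15, adjusted p = 6.4e-06) and in M2 at -0.61 (SE 0.15, adjusted p = 0.0082), the latter at -0.52 without Prep-/- M2 replicate 1. Cav1, the main protein of caveolae, was lower in M0 at -1.68 (SE 0.47, adjusted p = 0.0080), which was -1.27 without Prep-/- M0 replicate 3, and in M1 at -1.49 (SE 0.45, adjusted p = 0.0174), where leaving out Prep-/- replicate 2 (-1.40) or 3 (-1.33) ended the call. With the fold change made part of the test, the calls of Rxrb and Mertk in M0, Cav1 in M1, and Npc2, Lrp1 and Lrp8 in M2 were lost.

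Among the same 48 genes, LPS raised 9 and lowered 13 in Prep+/- BMDMs, and raised 14 and lowered 9 in the Prep-/- cells. These were 18.8% and 27.1% in Prep+/-, beside 16.7% and 20.9% of all genes, and 29.2% and 18.8% in Prep-/-, beside 20.9% and 21.0%. IL-4 and IL-13 raised 4 and lowered 7 in Prep+/- BMDMs, and raised 14 and lowered 11 in the Prep-/- cells, that is 8.33% and 14.6% beside 6.09% and 6.77%, and 29.2% and 22.9% beside 14.7% and 15.5%. With LPS, Cyp27a1 fell by 2.75 in Prep+/- (SE 0.36, adjusted p = 6.3e-06) and fell by 4.31 in Prep-/- BMDMs (SE 0.34, adjusted p = 2.6e-08). Pparg, a nuclear receptor that IL-4 acts through, fell by 2.84 in Prep+/- BMDMs with LPS (SE 0.21, adjusted p = 1.4e-08), and rose with IL-4 and IL-13 by 2.03 in Prep+/- (SE 0.18, adjusted p = 4.8e-07) and by 3.16 in Prep-/- BMDMs (SE 0.19, adjusted p = 1.9e-09). Tspo, a mitochondrial cholesterol-binding protein, rose with LPS in Prep+/- BMDMs by 1.93 (SE 0.21, adjusted p = 1.0e-06). Ch25h rose in Prep+/- BMDMs with LPS by 1.56 (SE 0.35, adjusted p = 0.0012) and with IL-4 and IL-13 by 2.04 (SE 0.35, adjusted p = 4.8e-04).

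In Prep-/- BMDMs Scd2 rose with LPS by 3.72 (SE 0.48, adjusted p = 6.4e-06) and with IL-4 and IL-13 by 2.82 (SE 0.46, adjusted p = 1.3e-04), the latter by 1.77 without Prep-/- M2 replicate 3. Lrp8 rose with LPS by 2.78 (SE 0.24, adjusted p = 7.3e-08). Arl4c, a small GTPase and LXR target, fell by 1.96 in Prep-/- BMDMs with LPS (SE 0.17, adjusted p = 8.4e-08). With IL-4 and IL-13, Cd5l fell by 1.45 (SE 0.26, adjusted p = 2.7e-04) in Prep-/- BMDMs and Gramd1a, a carrier of membrane cholesterol, fell by 1.19 (SE 0.12, adjusted p = 7.9e-07). In Prep+/- BMDMs given IL-4 and IL-13, Cav1 fell by 1.76 (SE 0.47, adjusted p = 0.0150), a call that was lost without M0 replicate 2 (-1.37) or M2 replicate 1 (-1.67). The call was also lost when the fold change was made part of the test (glmTreat, adjusted p = 0.0808).

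The genes whose pattern over the 18 libraries was most like that of a member are given by Pearson's r of log2 CPM among 12021 genes, as a description, since libraries of a group are not independent of its state and genotype. For Abca1 they were Mllt6 (r = 0.954), Cd86 (0.953) and Irf8 (0.946), a transcription factor of macrophages. For Abcg1 they were the lipid droplet gene Plin3 (0.967), Auh (0.962) and Sestd1 (0.962). For Nr1h3 they were Acp5 (0.979), Slamf6 (0.969) and Tnfrsf23 (0.963), and for Apoe they were Apoc1 (0.961), Fuca1 (0.959) and Selenop (0.958). Apoc1, which lies in the same apolipoprotein gene cluster as Apoe, had a mean of 4.73 normalised counts in Prep+/- M0 and 146 in Prep-/- M0, and Selenop 18102 and 167751.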

How the data were processed

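mRNA of BMDM cultures was sequenced as stranded, paired-end libraries. Per the study's methods and the submitters' processing notes, the authors trimmed reads with Trimmomatic 0.36, aligned them to GRCm39 with HISAT2 2.2.1.0 and counted them with stringtie2. The annotation release, the strand setting and the handling of reads that fit several genes are not given in the sources used here. The authors deposited counts per gene, as whole numbers and without normalization (16314 symbols, 18 libraries). Every column matched 1 sample by its title.

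From these counts, genes were kept with filterByExpr on the 6 groups and scaled by TMM (factors 0.819 to 1.20). The test was edgeR 4.0.16 (glmQLFit and glmQLFTest, R 4.3.3, limma 3.58.1) on all libraries with 1 coefficient per group and Benjamini-Hochberg adjustment. As in the study, a call needed both a 1.5-fold change and an adjusted p below 0.05; interactions needed the adjusted p alone. The common biological coefficient of variation was 0.167. DESeq2 1.42.0, the tool of the study, served as an alternative. Other alternatives were RLE size factors, other filters, only the libraries compared, a replicate block, glmTreat, no fold criterion and leaving out each library. The scripts were tested on simulated data.

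The 9 genes, the pathway and marker lists and the alternatives were chosen with earlier results of these data known. Pathway genes are named by size: up to 4 called genes each way per genotype comparison, and up to 2 per stimulation, with at least 5 CPM on average and no overlap between the groups' libraries; 1 gene that met this rule is not reported here. Of the listed genes, Ppara and Abcg5 were not in the table and 6 did not pass the filter.

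Replicate numbers are those of the labels, which do not say what a number marks. Deviations from group means correlated above 0.1 in every same-numbered pair for the M2 genotype comparison (0.249 to 0.462) and for M1 against M0 in Prep-/- BMDMs (0.169 to 0.259), and the numbers were taken as pairs there. In the M2 genotype comparison, replicates 1 and 2 of opposite genotypes also correlated above 0.1 (0.193 and 0.154), so this rule does not establish pairs. The main fits were unpaired, and the replicate block was an alternative. Replicates differed by more than sampling noise.

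Positions come from GENCODE on GRCm39, overlapping transcripts were searched with blastn 2.17.0, and promoter windows are from RefSeq. Lengths for CPM per kb are canonical transcripts. The marker lists other than macrophage and hepatocyte summed to at most 84.2 CPM (granulocyte precursor), 29.6 CPM (T cell), 20.5 CPM (stromal), 13.7 CPM (adipocyte), 11.5 CPM (B cell), 2.64 CPM (dendritic cell) and 0.377 CPM (erythroid) in any library. Plots were made in Python 3.11.15 (matplotlib 3.10.9).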

Additional observations from a re-analysis of the deposited data

Results flagged for a closer look

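Each value here is an interaction: the genotype difference (Prep-/- over Prep+/-, log2) in 1 state minus that in another, tested in the fit over all genes. From M0 to M1, 3 of the 9 genes passed, beside 24.6% of all genes. The difference in Abca1 was smaller in M1 by -2.16 and that in Apoe by -2.80, whereas that in Lpcat3 was larger by 0.75. From M0 to M2, 1 of the 9 genes passed, beside 9.64% of all genes, which was Lpcat3 at 0.65. From M1 to M2, 2 of the 9 genes passed, beside 13.8% of all genes, with Abca1 at 2.196 and Apoe at 1.55. Groups of 3 libraries were too small to look for single outlying libraries by a gap rule.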

How the results depend on the processing

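For the 9 genes in 10 comparisons, 1458 values were computed under the alternatives: 1337 had the direction and call of the reported value, 52 lost a call, 19 gained one and 50 had the opposite sign. Of those 50, 0 passed the test. In M0 and M2 the genotype calls of Abca1, Apoe and Pltp, and in M1 those of Abcg1 and Pltp, held under every alternative run, as did those of Abcg1 and Mylip in M0. For the named pathway genes and Prep, 580 values were the same and 20 lost a call. At 3 libraries a group, a missed call bounds no difference.

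Testing against a fold change of 1.5 itself (glmTreat) gave 837 genes higher and 1133 lower between genotypes for M0, 361 and 273 for M1, and 228 and 495 for M2, with 2 of the 9 genes higher in M1 and 3 in M2. It gave 1313 and 1643 genes for LPS in Prep+/-, 1627 and 1585 for LPS in Prep-/-, 374 and 298 for IL-4 and IL-13 in Prep+/-, and 951 and 947 in Prep-/-. Of the 9 genes it left 0 lower with LPS in Prep+/-, 1 lower in Prep-/-, and 1 higher with IL-4 and IL-13 in Prep+/-. Without a fold criterion, 2922 genes were higher in M0, 2372 higher and 1998 lower in M1, 1394 higher in M2, and with IL-4 and IL-13 1124 higher in Prep+/- and 2657 in Prep-/-.

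Apoe joined Abca1 as lower with IL-4 and IL-13 in Prep+/- (2 of the 9 genes) under DESeq2, under a replicate block in all libraries, and with only the libraries compared with or without a replicate block. DESeq2 gave 973 genes higher in the M2 to M0 interaction, with 1 of the 9 genes lower (Pltp), and 1118 higher in that of M2 to M1. With a replicate block, 2 of the 9 genes were lower in the M2 to M0 interaction (Apoe and Pltp), also in only the libraries compared, where 0 of the 9 were higher and 317 genes were higher in all. Without the block, only the libraries compared gave 266 higher, 317 lower and 0 of the 9 higher (Lpcat3 was lost), and 1143 genes were lower with IL-4 and IL-13 in Prep-/- with the block. In the comparisons where the numbers were taken as pairs, the block gave 772 genes higher and 1203 lower in M2. With the block, 6 of the 9 genes were again higher in M2, and the call of Rxra with LPS in Prep-/- was lost (-0.58). With 3 mismatches allowed, 2 promoters matched the DR4 motif.

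Leaving out 1 library at a time, the genes higher in M1 numbered 961 to 1518 and those lower 781 to 1346, the interaction of M2 to M0 277 to 898 higher and 239 to 653 lower, and that of M2 to M1 389 to 855 higher and 608 to 1201 lower. The lowest M1 counts came without Prep-/- M1 replicate 1. Of the 9 genes, 0 to 1 were lower in M0 (Nr1h3), 0 to 1 lower with LPS in Prep+/-, 1 to 4 lower with LPS in Prep-/-, 1 to 2 higher with IL-4 and IL-13 in Prep+/-, and 1 to 2 higher and 0 to 1 lower in the M2 to M0 interaction, with 1 to 2 higher in that of M2 to M1. The cause of these changes was not tested.

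Values with the opposite sign, all of them short of a call, were the interactions of Nr1h3 in M1 to M0 (-0.032 with RLE size factors, -0.034 with DESeq2, -0.030 with only the libraries compared, -0.017 with the block there, and -0.22 to 0.37 on leaving out a library), Mylip in M2 to M1 (0.025 with RLE and with DESeq2, -0.19 to 0.23), Abca1 in M2 to M0 (-0.0036 with the block in only the libraries compared, -0.12 to 0.25), and Nr1h2 with LPS in Prep-/- (-0.0067 in only the libraries compared, -0.13 to 0.095). Leaving out a library also spanned 0 for the genotype difference of Apoe in M1 (-0.59 to 0.15) and Lpcat3 in M0 (-0.058 to 0.060), for Abcg1 with LPS in Prep-/- (-0.11 to 0.41), for Rxra (-0.14 to 0.065), Mylip (-0.097 to 0.039) and Lpcat3 (-0.0098 to 0.076) with IL-4 and IL-13 in Prep+/- and Mylip in Prep-/- (-0.30 to 0.12), and for the interactions of Mylip (-0.29 to 0.066) and Nr1h2 (-0.013 to 0.18) in M1 to M0, of Mylip (-0.26 to 0.17) and Nr1h2 (-0.084 to 0.11) in M2 to M0, and of Lpcat3 in M2 to M1 (-0.21 to 0.0011).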
